A study of Mus musculus with 6 samples.

Results

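Collagens, laminins and the glycoproteins and proteoglycans that join them form the extracellular matrix, and 74 genes of this kind were followed in EOMA cells, a line from a mouse endothelioma. The members were chosen by name from the 22564 genes of the deposited table: every collagen chain gene (44), every laminin chain gene (11) and 19 named matrix genes such as Fn1, Sparc, Tnc and Nid1. The rule uses gene names and no expression value, but the members were chosen with earlier results of these data known. The 3 control libraries come from cells given DMSO, the solvent, for 24 h, and the 3 treated libraries from cells given 2 µM DHTS for the same time, both in normoxic culture. DHTS, or 15,16-dihydrotanshinone I, is a plant diterpenoid, and the series title ties the work to infantile hemangioma and to hypoxia-inducible factor 1. The cells carry no engineered allele that the labels name. All libraries come from the same line, and nothing says whether the 3 libraries of a group were separate cultures, so the p-values reflect how far these libraries scatter, which can be technical.

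Collagens are helices of wound chains, each rich in glycine. Fibrillar types build the ropes of connective tissue, while collagen IV builds the sheet of the basement membrane, the thin layer on which epithelial and endothelial cells sit. Laminins are cross-shaped trimers of an alpha, a beta and a gamma chain that polymerise on the cell surface. Nidogens, perlecan (Hspg2) and agrin (Agrn) tie the laminin and collagen IV networks together. In vascular tissue this layer supports the endothelium, and collagen XVIII (Col18a1), a basement membrane collagen, is the parent of the angiogenesis inhibitor endostatin.

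With DHTS Fn1, Sparc, Tnc, the 4 tested collagen IV chains, Col5a1, Col6a1, Col6a2, Col8a1, Lamb1, Lamb3, Lamc1 and Agrn were lower. Matn4, Nid1, Col18a1, Col16a1, Col9a3, Fbln1 and Lama5 were higher. Of the 74 members, 29 reached a mean of 1 FPKM (the fragments of a gene per length of transcript and per size of library) over the 6 libraries and were tested. Limma on log2(FPKM + 1), with Benjamini-Hochberg adjustment over 11416 genes and a threshold of 0.05, found 7 of the 29 higher and 15 lower, and 7 did not pass. The background was high: 50.1% of all tested genes were called, 28.2% higher and 21.9% lower, against 24.1% higher and 51.7% lower among the tested members. The median log2 fold change was −0.22 over the tested members and 0.03 over all genes tested. Groups did not overlap for 24 of the 29, against 59.8% of all tested genes. Changes of at least 2-fold in FPKM + 1 past the threshold numbered 3 higher and 5 lower among the members, against 5.83% and 1.75% of all tested genes. Col4a2, at 0.470 of its DMSO level in plain FPKM, is not among the 5. Of all calls, 56.3% were higher in this fit, 49.5% with median-ratio scaling and 42.8% with quantile normalization, and of the members' calls 31.8%, 27.3% and 30.4%. Of the tested members 3, Matn4, Col9a3 and Col11a2, had a DMSO mean under 1 FPKM and entered through their DHTS level, so these counts describe the tested members only. In bulk RNA, fewer cells of a type and less RNA per cell cannot be told apart.

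**Figure D1:**
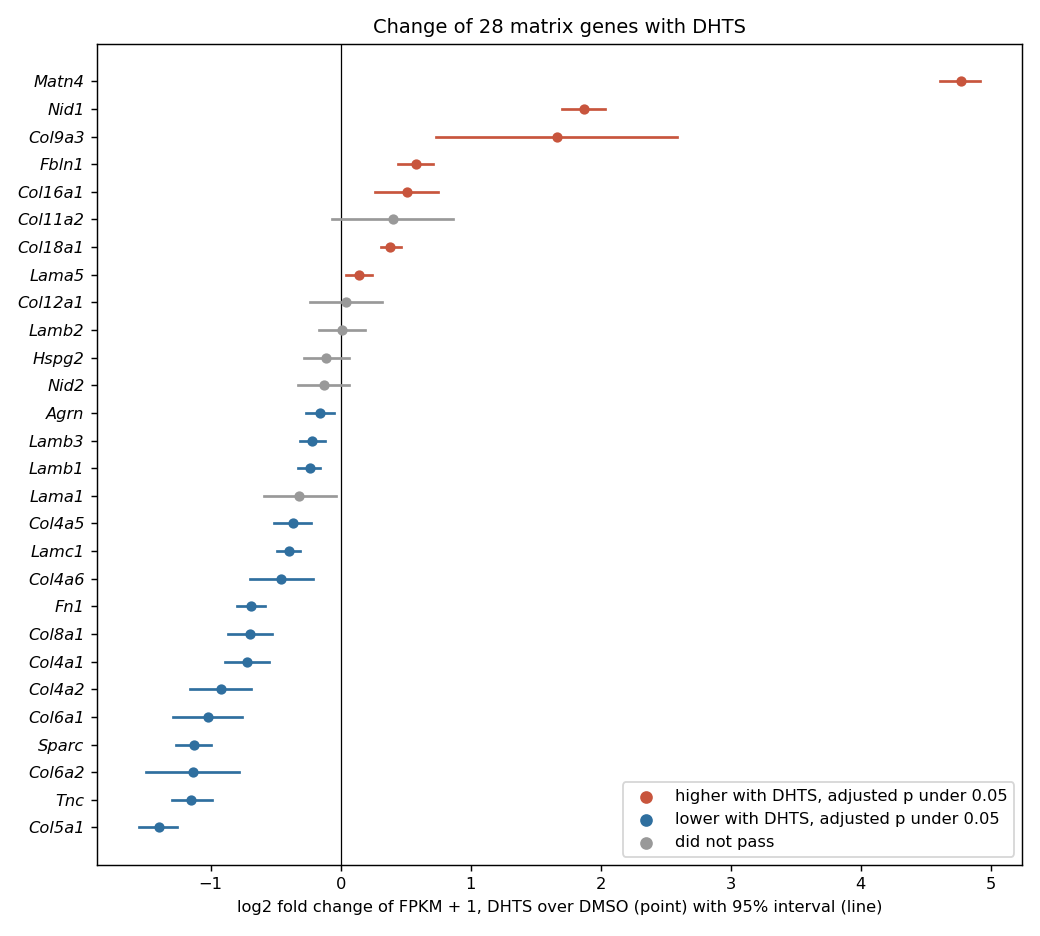
Log2 fold change of FPKM + 1 (x axis, DHTS over DMSO) for 28 of the 29 tested matrix genes, with points for the limma estimate and lines for its 95% interval. Matn4 stands alone at 4.77, followed by Nid1 at 1.87, and 15 genes down to Col5a1 at −1.40 are lower past the threshold.

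Libraries held 9343157 to 12255247 estimated fragments. Across tested genes, which are not independent replicates, Pearson r was 0.986 to 0.989 inside a group and 0.929 to 0.932 from one group to the other. Endothelial markers were sparse: of 18, only Esam, Egfl7, Cd34 and Eng were tested, 5 were listed at 0 in every library, and the defining Cdh5 and Kdr were at 0 in every DMSO library, so most endothelial markers go against the labelled type. Their summed level ran from 110.1 to 113 FPKM with DMSO and from 134 to 155 with DHTS. Cd34 carried most of that sum, with means of 77.6 and 102 FPKM. Of the 4 tested, 3 were higher (all tested genes: 28.2% higher and 21.9% lower). Egfl7, at 29.2 and 24.4 FPKM on average, did not pass. Of 12 epithelial markers 8 were tested and none was at 0 in every library, with sums of 233 to 239 and 281 to 286 FPKM. Of these 8, 3 were higher and 2 lower (all tested genes: 28.2% higher and 21.9% lower). Krt18 went from 136 to 197 FPKM on average, Krt8 from 1.35 to 3.79 and Krt5 from 0.0399 to 4.12. Krt5 entered the fit through its DHTS level. Epcam went from 24.2 to 17.3 FPKM and Elf3 from 34.9 to 19.6. Among those not tested, Cdh1 did not exceed 0.144 FPKM, and Krt14 and Cldn7 were at 0 in every DMSO library. Of 10 fibroblast markers 4 were tested and 2 (Tcf21 and Fap) were at 0 throughout, with sums of 91.9 to 94.2 and 99.1 to 106 FPKM. Twist2 carried that sum, with means of 83.4 and 96.5 FPKM, while 2 of the 4 were lower, Pdgfrb from 5.36 to 1.90 and Tbx18 from 2.04 to 1.27. These sums moved with the treatment, and their part in the results was not tested.

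Promoter sequences are shown for Col4a1 and Col4a4, each from a head-to-head pair of collagen IV genes that were lower together. The pair of Col4a4 was under the FPKM filter and was lower on another measure, given below. Windows of the remaining pair, Col4a5 and Col4a6, which was also lower, are not shown. Col5a1 is shown as the tested collagen with the largest fall on the log2(FPKM + 1) scale. Matn4 and Nid1 are shown as the tested members with the largest rises on that scale. The windows are from RefSeq (build GRCm38.p6), 250 bases before to 50 bases after the annotated start, written from 5′ to 3′ on the strand of the gene, and 52 of the 74 members matched at least 1 window. Capitals mark every match on either strand to GGGCGG, the core of GC boxes, or to CCAAT. Neither TGANTCA, the AP-1 type motif, nor TATAAA occurred in these 5 windows. The Col4a1 window, chr8:11312777-11313076 on the minus strand, also holds the start of Col4a2, which RefSeq places 21 bases from that of Col4a1 on the other strand.
Col4a1: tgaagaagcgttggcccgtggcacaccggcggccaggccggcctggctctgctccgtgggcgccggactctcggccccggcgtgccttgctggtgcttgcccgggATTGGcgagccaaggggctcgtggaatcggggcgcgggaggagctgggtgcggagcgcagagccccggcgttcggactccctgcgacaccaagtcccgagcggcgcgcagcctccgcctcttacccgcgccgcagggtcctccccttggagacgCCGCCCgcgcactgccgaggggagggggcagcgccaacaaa
The Col4a4 window, chr1:82586800-82587099 on the minus strand, faces Col4a3, whose GENCODE start lies 72 bases away, and holds none of the motifs.
Col4a4: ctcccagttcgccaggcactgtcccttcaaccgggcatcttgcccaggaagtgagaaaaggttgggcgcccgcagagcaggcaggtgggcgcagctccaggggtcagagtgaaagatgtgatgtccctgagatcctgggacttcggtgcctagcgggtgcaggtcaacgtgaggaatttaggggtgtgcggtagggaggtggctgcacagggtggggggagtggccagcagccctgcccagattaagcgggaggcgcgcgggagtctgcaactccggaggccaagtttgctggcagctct
The Col5a1 window is chr2:27886175-27886474 on the plus strand.
Col5a1: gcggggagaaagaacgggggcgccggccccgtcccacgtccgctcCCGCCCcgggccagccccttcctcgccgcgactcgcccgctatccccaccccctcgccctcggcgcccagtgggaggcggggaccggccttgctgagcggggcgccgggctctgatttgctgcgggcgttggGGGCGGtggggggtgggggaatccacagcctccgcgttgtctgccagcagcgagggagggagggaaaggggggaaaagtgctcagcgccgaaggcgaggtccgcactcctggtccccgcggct
The Matn4 window is chr2:164405111-164405410 on the minus strand.
Matn4: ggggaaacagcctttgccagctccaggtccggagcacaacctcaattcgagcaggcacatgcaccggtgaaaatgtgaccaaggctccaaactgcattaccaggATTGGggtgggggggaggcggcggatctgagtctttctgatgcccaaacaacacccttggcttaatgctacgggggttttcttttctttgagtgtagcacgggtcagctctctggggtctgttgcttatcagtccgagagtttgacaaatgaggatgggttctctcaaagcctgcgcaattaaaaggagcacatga
The Nid1 window is chr13:13437352-13437651 on the plus strand.
Nid1: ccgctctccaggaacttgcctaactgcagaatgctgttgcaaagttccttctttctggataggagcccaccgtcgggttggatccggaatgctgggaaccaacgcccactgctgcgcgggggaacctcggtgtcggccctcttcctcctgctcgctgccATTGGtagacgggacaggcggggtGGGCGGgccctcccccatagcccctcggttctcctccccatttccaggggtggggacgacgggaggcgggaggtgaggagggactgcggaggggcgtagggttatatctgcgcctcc
GGGCGG was present in 35.7% of all 32851 promoter windows and in 62.3% of the 61 windows of members. CCAAT was present in 37.4% and 31.1%, TGANTCA in 7.8% and 1.6%, and TATAAA in 13.6% and 13.1%. The 61 windows belong to 52 members, and windows of all tested genes were not compared. These are matches of letters and not evidence of binding.

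Fibronectin and the matricellular proteins, which tune cell adhesion, included Fn1, the most abundant member with DMSO, and all 3 tested members of that class were lower. Fn1, the fibronectin gene at chromosome 1, positions 71585520 to 71653200 (GENCODE, mm10), stood at 218, 227 and 228 FPKM with DMSO and at 139, 131 and 146 with DHTS. Its groups were far apart, and the log2 fold change was −0.69 (SE 0.05, adjusted p = 2.6e-05). Sparc, which encodes a collagen-binding glycoprotein also called osteonectin (chromosome 11, 55394500 to 55423183), was at 177, 180.1 and 169 FPKM with DMSO and at 72.8, 83.1 and 82.7 with DHTS. Every DHTS library was below every DMSO library (log2 fold change −1.13, SE 0.06, adjusted p = 7.5e-06). Tnc, tenascin C, a matrix protein of remodelling tissue, went from 15.9, 15.8 and 15.3 FPKM to 6.11, 6.81 and 6.67 (−1.15, SE 0.07, adjusted p = 1.4e-05). Postn, the remaining member of the class, was listed at 0 in all 6 libraries. The summed FPKM of the class went from 415 ± 6.50 to 225 ± 9.49 (SD, n = 3), 0.541 of the DMSO level, and Fn1 alone went from between 17.9% and 18.7% of the summed FPKM of the 74 members to between 11.9% and 13.1%. Fn1 shares 292 of its 11685 exon bases with Apol7d on the other strand, a gene at 1.21 to 3.15 FPKM. Whether counting used strand is not given in the sources used here.

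**Figure D2:**
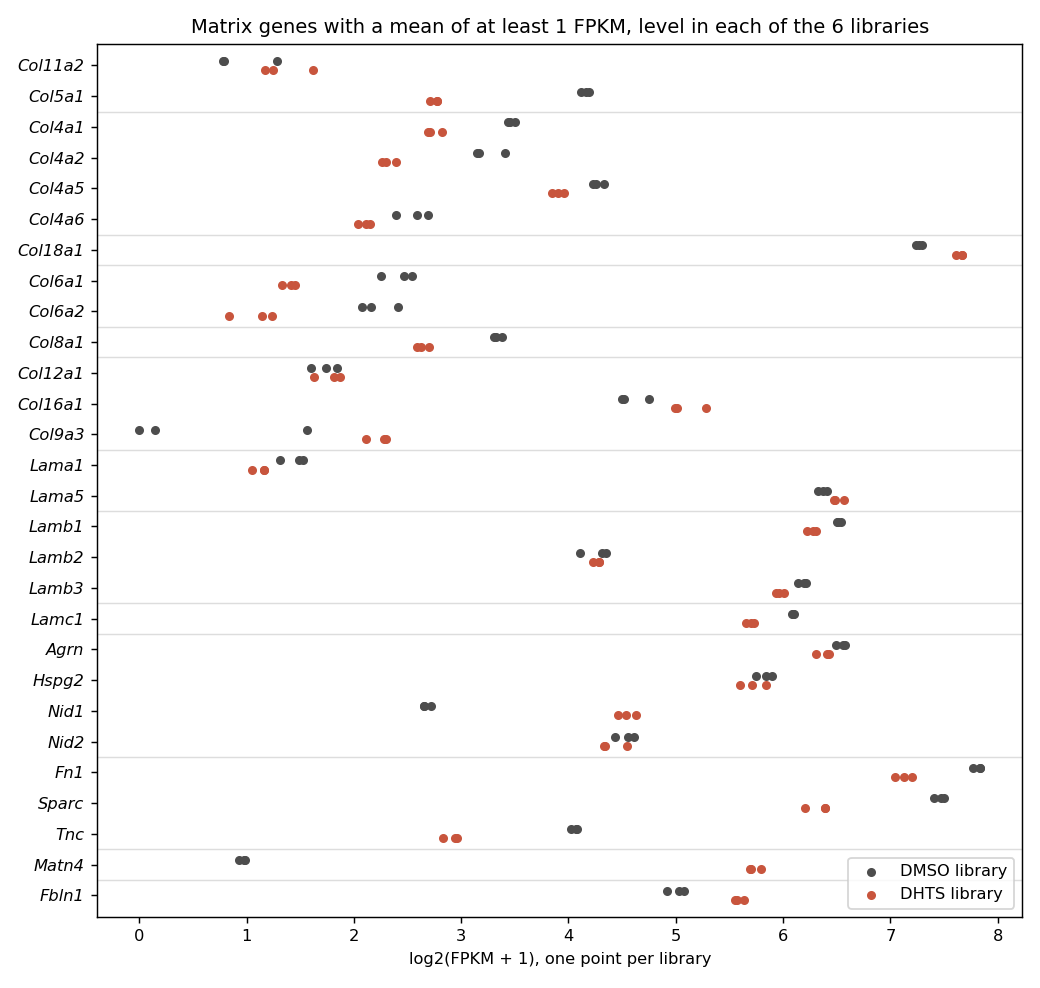
Level of 28 of the 29 tested matrix genes as log2(FPKM + 1) (x axis), with one point per library for DMSO and DHTS and grey lines between functional classes. Fn1, Sparc, Col18a1 and the main laminin chains lie at the right, and Matn4 moves from under 1 FPKM to between 50.8 and 54.5 FPKM.

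All 4 tested chains of collagen IV were lower with DHTS, and the other 2 chains were lower on another measure. Col4a1 and Col4a2 encode the chains of the most widespread collagen IV trimer and lie head to head on chromosome 8, at 11198423 to 11312826 and 11312805 to 11449287. Col4a1 was at 10.3, 9.81 and 10.0 FPKM with DMSO and at 5.48, 6.09 and 5.56 with DHTS (log2 fold change −0.72, SE 0.07, adjusted p = 1.8e-04). Col4a2 was at 7.87, 7.98 and 9.65 FPKM and at 3.80, 4.26 and 3.92 (−0.92, SE 0.10, adjusted p = 2.7e-04). Neither gene's groups overlapped, and the ratio of Col4a1 to Col4a2 was between 1.04 and 1.30 with DMSO and between 1.42 and 1.44 with DHTS. The genes share 22 exon bases at their starts.

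Col4a5 and Col4a6 form the X-linked pair, with RefSeq starts 1343 bases apart. Col4a5, which in human is the gene of X-linked Alport syndrome, was the most abundant chain, at 18.1, 17.8 and 19.1 FPKM with DMSO and at 13.4, 14.0 and 14.5 with DHTS (log2 fold change −0.37, SE 0.06, adjusted p = 0.0021). Col4a6 was at 5.01, 4.27 and 5.44 FPKM and at 3.43, 3.32 and 3.12 (−0.46, SE 0.10, adjusted p = 0.0089). Both DHTS groups lay wholly below DMSO. The ratio of Col4a5 to Col4a1, the leading chains of their pairs, was 1.76 to 1.90 with DMSO and 2.30 to 2.61 with DHTS.

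Col4a3 and Col4a4, chains of the collagen IV of kidney filters and some other organs, had means under 1 FPKM and were not in the FPKM fit. Col4a4 was at 1.10, 1.16 and 1.29 FPKM with DMSO and at 0.457, 0.351 and 0.349 with DHTS. Col4a3 was at 0.436, 1.62 and 1.92 FPKM and at 0.118, 0.271 and 0.252. The number of scaled fragments (the authors' estimated fragments divided by a factor per library) behind 1 FPKM of Col4a3 ranged from 22.3 to 94.2 between libraries, so the FPKM of this gene moved with more than its fragments. In estimated fragments Col4a3 had 40, 49 and 50 with DMSO and 11, 27 and 21 with DHTS, and Col4a4 had 49, 70 and 90 and 23, 24 and 20. The limma fit on scaled fragments, run as an alternative on genes with a mean of at least 10, called both lower (Col4a3 −1.22, adjusted p = 9.7e-04; Col4a4 −1.50, adjusted p = 5.1e-06), where 62.5% of 11930 genes were called in either direction. The summed FPKM of the 6 chains was 44.3 ± 2.77 with DMSO and 27.6 ± 0.845 with DHTS (SD, n = 3).

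**Figure D3:**
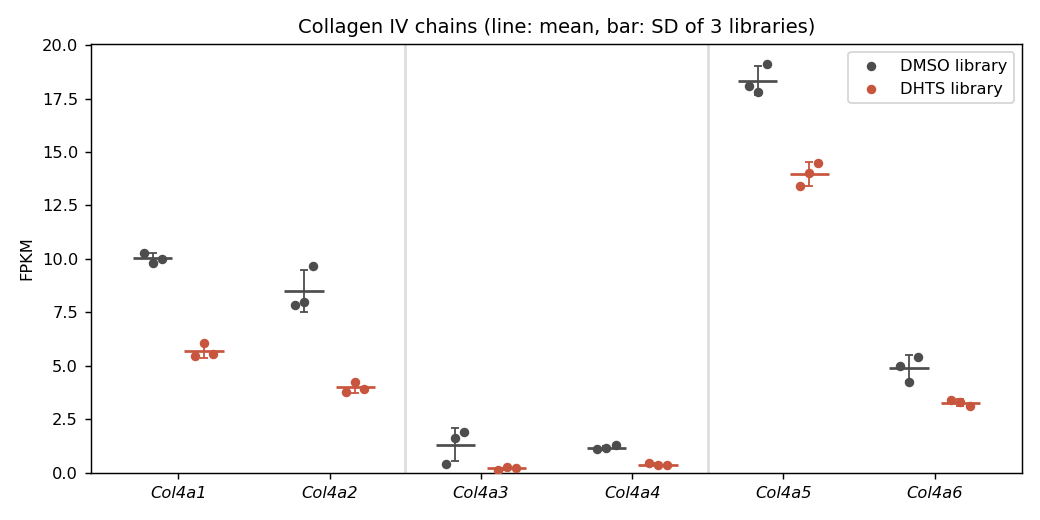
FPKM (y axis) of the 6 collagen IV chain genes, with grey lines between the head-to-head pairs, points for libraries, horizontal lines for the mean and bars for the SD of 3 libraries. The DHTS libraries lie below the DMSO libraries in each of the 6 genes, from Col4a5 (17.8 to 19.1 FPKM with DMSO) to Col4a3.

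Col18a1 was the most abundant collagen and went the other way. It is at chromosome 10, 77052178 to 77166548, and was at 153, 149.7 and 156 FPKM with DMSO and at 194, 203 and 202 with DHTS (log2 fold change 0.38, SE 0.03, adjusted p = 9.3e-05). All DHTS libraries were above all DMSO libraries. Its share of the summed FPKM of the 44 collagen genes was 58.6% to 58.9% with DMSO and 68.8% to 70.4% with DHTS. The summed collagen FPKM was 260.1 ± 5.40 with DMSO and 287 ± 8.48 with DHTS with Col18a1, and 107 ± 2.28 and 87.2 ± 4.37 without it (SD, n = 3). Col15a1, the other multiplexin, reached at most 0.0863 FPKM in any library.

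Col5a1 of the fibrillar collagens, both tested collagen VI chains and the short-chain collagen Col8a1 were lower. Col5a1, whose product starts and sizes collagen fibrils (chromosome 2, 27886425 to 28039514), was at 16.4, 17.3 and 16.9 FPKM with DMSO and at 5.83, 5.55 and 5.84 with DHTS, without overlap (log2 fold change −1.40, SE 0.06, adjusted p = 3.6e-06). Its usual partner Col5a2 was above 0 in 1 library only, at 0.0131 FPKM. Col6a1 and Col6a2, neighbours on chromosome 10 whose products join another chain in beaded microfibrils, both fell. Col6a1 went from 4.52, 4.81 and 3.77 FPKM to 1.73, 1.51 and 1.67 (−1.02, SE 0.11, adjusted p = 2.8e-04). Col6a2 went from 4.31, 3.22 and 3.47 FPKM to 0.787, 1.21 and 1.36 (−1.14, SE 0.15, adjusted p = 7.4e-04). The ratio of mean FPKM, DHTS over DMSO, was 0.305 for Col6a2 and 0.341 for Col5a1, so their order turns on the pseudocount of 1. Col6a3, the remaining chain of that trimer, had at most 10 estimated fragments in a library. Col8a1, a short-chain collagen of vessel walls and the cornea, ranged from 8.88 to 9.42 FPKM with DMSO and from 5.02 to 5.51 with DHTS, without overlap (−0.70, SE 0.07, adjusted p = 2.3e-04).

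The main collagen genes of connective tissue were close to absent. Col1a1, a chain of collagen I, stood at 0.847, 0.686 and 0.802 FPKM with DMSO and at 0.598, 0.456 and 0.633 with DHTS, and its change did not pass on scaled fragments (−0.47, adjusted p = 0.0606). Col1a2, its partner chain, did not exceed 0.127 FPKM, and Col3a1 was listed at 0 in every library.

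Collagens that sit on fibril surfaces (FACIT collagens) included 2 that rose and 1 that did not pass. Col16a1, a collagen that links fibrils and basement membranes to cells, was at 26.0, 21.9 and 21.6 FPKM with DMSO and at 31.2, 37.9 and 30.8 with DHTS (log2 fold change 0.51, SE 0.10, adjusted p = 0.0062). Col12a1 stood at 2.32 ± 0.276 and 2.42 ± 0.289 FPKM with overlapping groups (0.04, 95% interval −0.24 to 0.32, adjusted p = 0.79), a difference whose sign turned under quantile normalization (−0.17). Col9a3, a cartilage collagen chain, was at 0, 0.111 and 1.95 FPKM with DMSO and at 3.91, 3.34 and 3.86 with DHTS (1.66, SE 0.39, adjusted p = 0.011). Counted as estimated fragments it had 0, 3 and 9 under DMSO against 40, 49 and 39 under DHTS, and on scaled fragments the log2 fold change was 3.74. The fragments behind 1 FPKM of Col9a3 varied 7.36-fold between libraries, and it shares 234 of its 3853 exon bases with Tcfl5 on the other strand, at up to 0.0462 FPKM. Col11a2, another cartilage collagen chain and the other tested member that varied by over 1.5-fold in this way, stood at 1.44, 0.732 and 0.718 FPKM and at 1.38, 2.08 and 1.26 (0.40, SE 0.20, adjusted p = 0.133), and on scaled fragments it passed (1.46, adjusted p = 3.1e-04). It had 10, 21 and 22 fragments under DMSO and 63, 52 and 29 under DHTS.

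Of the 7 tested laminin chains 1 was higher and 3 lower (all tested genes: 28.2% higher and 21.9% lower). That is 57.1% called in either direction, near the 50.1% of all tested genes. The leading alpha chain, Lama5, and the leading beta and gamma chains, Lamb1 and Lamc1, together encode the trimer that is widespread in adult epithelia and vessels. Lama5 was at 79.1, 81.9 and 83.9 FPKM with DMSO and at 87.8, 88.6 and 94.1 with DHTS (log2 fold change 0.14, SE 0.04, adjusted p = 0.0293). That call was lost under median-ratio scaling (0.0848) and without DMSO replicate 1 (0.087), DMSO replicate 2 (0.0674), DHTS replicate 2 (0.0507) or DHTS replicate 3 (0.0795). Lamb1 was at 90.0, 89.6 and 92.0 FPKM and at 73.9, 76.8 and 78.3 (−0.24, SE 0.04, adjusted p = 0.0014), and Lamc1 at 67.2, 66.6 and 67.9 and at 51.1, 49.3 and 51.9 (−0.40, SE 0.04, adjusted p = 1.5e-04). The ratio of Lama5 to Lamc1 FPKM was 1.18 to 1.24 with DMSO and 1.72 to 1.81 with DHTS, and that of Lama5 to Lamb1 went from between 0.878 and 0.914 to between 1.15 and 1.20.

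Lama3 and Lamb3 encode chains of the laminin of epithelial anchoring structures. Lamb3 was at 72.2, 69.4 and 73.2 FPKM with DMSO and at 60.1, 63.2 and 61.3 with DHTS (log2 fold change −0.22, SE 0.04, adjusted p = 0.0039). Lama3, on chromosome 18, was at 0.0716, 0.103 and 0.120 FPKM with DMSO and at 0.793, 0.941 and 0.994 with DHTS. Its 8, 11 and 16 fragments with DMSO and 90, 114 and 101 with DHTS gave a log2 fold change of 3.12 on scaled fragments (adjusted p = 1.9e-10). Lamb3 exceeded Lama3 611 to 1008 times in FPKM with DMSO and 61.7 to 75.7 times with DHTS. Lamc3 had 4, 3 and 2 fragments with DMSO and 17, 22 and 31 with DHTS (2.64 on scaled fragments, adjusted p = 3.1e-05). Lamb2, at 18.2 ± 1.74 and 18.3 ± 0.352 FPKM, did not pass (0.01, 95% interval −0.17 to 0.19, adjusted p = 0.925), nor did Lama1, the early embryonic alpha chain, at 1.72 ± 0.206 and 1.18 ± 0.102 (−0.32, adjusted p = 0.0578), although its groups did not overlap and it passed under quantile normalization (adjusted p = 0.0044) and on scaled fragments (5.8e-04).

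**Figure D4:**
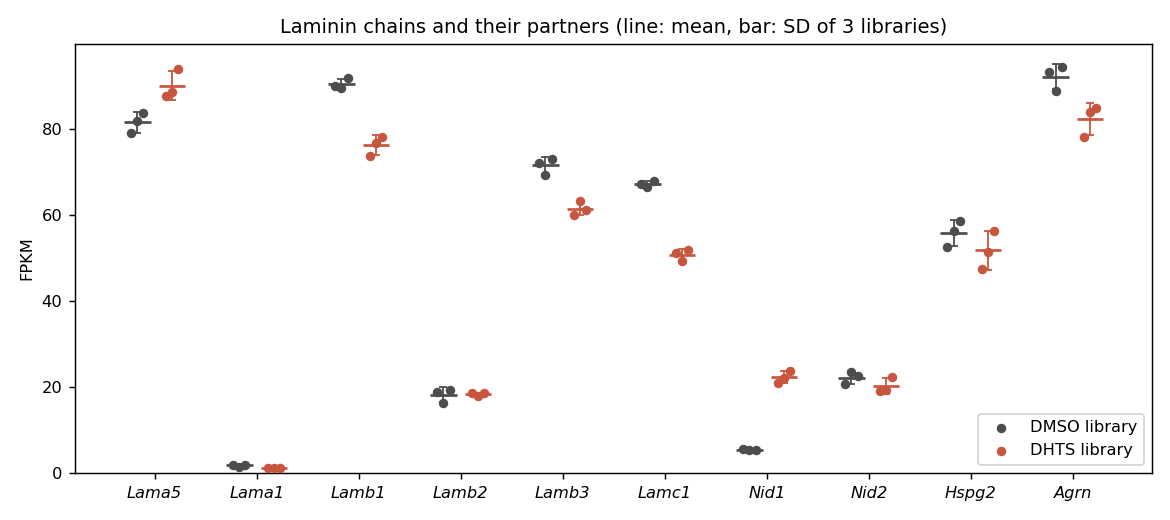
FPKM (y axis) of 6 laminin chain genes and of the linker genes Nid1, Nid2, Hspg2 and Agrn, with points for libraries, horizontal lines for the mean and bars for the SD of 3 libraries. Lama5 is higher with DHTS while Lamb1, Lamb3 and Lamc1 are lower, and Nid1 rises to the level of Nid2.

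Among the proteins that link laminin and collagen IV networks, Nid1 rose 4.14-fold in FPKM, Agrn fell and 2 did not pass. Nid1, nidogen 1 (chromosome 13, 13437551 to 13512269), was at 5.57, 5.31 and 5.29 FPKM with DMSO and at 21.0, 22.2 and 23.8 with DHTS (log2 fold change 1.87, SE 0.07, adjusted p = 1.6e-06). Its paralog Nid2 stood at 20.6, 23.5 and 22.5 FPKM and at 19.1, 19.2 and 22.4, with overlapping groups (−0.13, 95% interval −0.33 to 0.06, adjusted p = 0.225). Nid2 was thus 3.69 to 4.43 times the level of Nid1 with DMSO and 0.866 to 0.940 times with DHTS. Nid2 shares 437 of its 5174 exon bases with Rtraf on the other strand, a gene at 60.7 to 79.9 FPKM. Agrn was at 93.4, 88.9 and 94.4 FPKM with DMSO and at 78.2, 84.0 and 85.0 with DHTS (−0.16, SE 0.05, adjusted p = 0.0244). Its call was lost without DMSO replicate 1 (0.0696), DMSO replicate 3 (0.078) or DHTS replicate 1 (0.0674). Hspg2 averaged 55.9 ± 2.99 FPKM with DMSO and 51.8 ± 4.43 with DHTS, which did not pass (−0.11, 95% interval −0.28 to 0.06, adjusted p = 0.244).

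Matn4 had the largest change of all members. It encodes a matrilin, an adaptor of collagen and proteoglycan networks, and lies on chromosome 2 at 164389393 to 164405160. Matn4 stood at 0.981, 0.905 and 0.974 FPKM with DMSO and at 51.2, 54.5 and 50.8 with DHTS (log2 fold change 4.77, SE 0.07, adjusted p = 2.2e-08). In estimated fragments this was 24, 21 and 29 under DMSO against 1364, 1561 and 1200 under DHTS, and on scaled fragments the log2 fold change was 5.81. Matn4 shares 149 of its 5174 exon bases with Rbpjl on the other strand, which went from a mean of 0.0177 FPKM to 1.46. Matn2, its paralog, moved the other way, at 1.11, 1.12 and 1.03 FPKM and at 0.606, 0.773 and 0.890, but did not pass on scaled fragments (−0.54, adjusted p = 0.0526).

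Elastic fibre genes other than Fbln1 were low. Fbln1, fibulin 1, a calcium-binding glycoprotein of basement membranes and elastic fibres, was at 31.7, 29.3 and 32.8 FPKM with DMSO and at 46.0, 46.5 and 48.8 with DHTS (log2 fold change 0.58, SE 0.06, adjusted p = 1.6e-04). Every DHTS library was above the DMSO libraries. Fbln2, its paralog, had 0, 3 and 1 estimated fragments with DMSO and 20, 29 and 30 with DHTS (3.79 on scaled fragments, adjusted p = 3.8e-06). Fbn1, the gene of the microfibril protein fibrillin 1, had 26, 30 and 20 fragments and 12, 15 and 12 (−0.84 on scaled fragments, adjusted p = 0.0272). Eln, elastin, was listed at 0 in all libraries and Fbn2 did not exceed 0.00814 FPKM.

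Of the 45 members under the FPKM filter, 7 were listed at 0 in every library (Col3a1, Col9a2, Col13a1, Col25a1, Postn, Eln and Lum) and 20 more stayed under 0.2 FPKM in every library. On scaled fragments 12 of the 45 reached a mean of 10, of which 7 were higher, 3 lower and 2 not called, against 33.9% higher and 28.6% lower over the 11930 genes of that fit. A gene can reach that mean through its DHTS libraries alone, so the 7 are a description. Besides Lama3, Lamc3 and Fbln2, they comprise Col2a1, the collagen of cartilage, with 3, 2 and 1 fragments and 38, 47 and 30 (log2 fold change 3.78, adjusted p = 9.6e-08). Col27a1, a fibrillar collagen of cartilage, had 11, 5 and 13 fragments and 87, 89 and 67 (3.05, adjusted p = 2.4e-09), with deposited values that were not whole fragments. Col7a1, the collagen of anchoring fibrils under epithelia, had 15, 22 and 23 fragments and 40, 58 and 47 (1.30, adjusted p = 1.2e-04). In FPKM its groups overlapped, at 0.152, 0.906 and 0.195 and at 0.398, 0.768 and 0.522, and without a filter it did not pass (0.17, adjusted p = 0.574), while its fragments per FPKM varied 3.88-fold between libraries. Vcan, the large proteoglycan versican, had 11, 9 and 9 fragments and 33, 27 and 45 (1.79, adjusted p = 6.4e-05). The fibroblast proteoglycans Dcn, Lum and Bgn did not reach 10 scaled fragments.

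**Figure D5:**
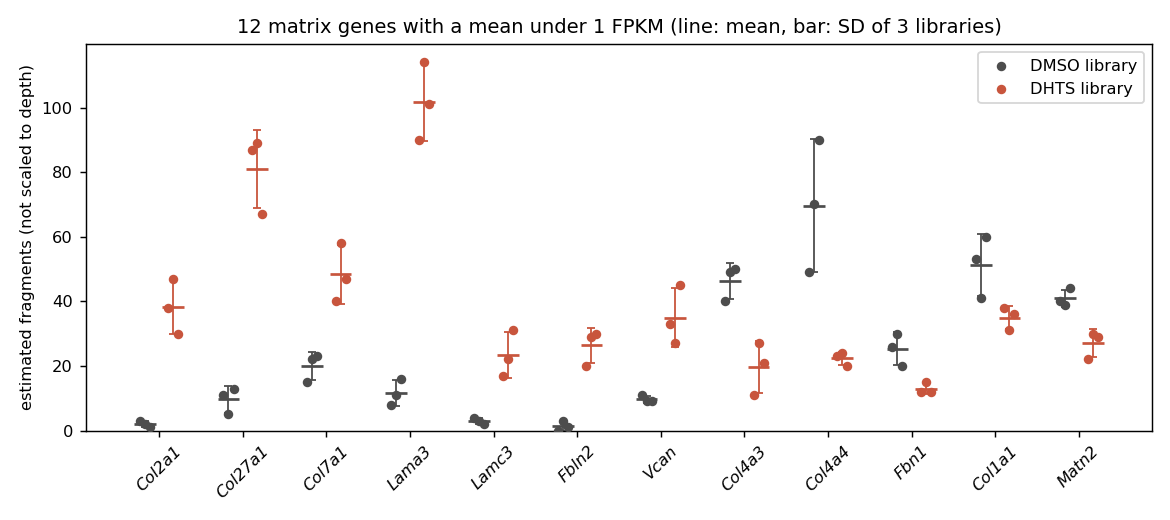
Estimated fragments (y axis, not scaled to depth) of the 12 members with a mean under 1 FPKM and at least 10 scaled fragments, with points for libraries, horizontal lines for the mean and bars for the SD of 3 libraries. The 7 genes at the left are higher with DHTS, up to 114 fragments for Lama3, and the 5 at the right are lower or did not pass.

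The deposited annotation names the basement membrane for 22 of the tested members, of which 4 were higher and 13 lower (median log2 fold change −0.28). Of all tested genes, 28.2% were higher and 21.9% lower. The 7 tested members without that term had 3 higher and 2 lower (median 0.40, the value of Col11a2). Col11a2, Matn4 and Col9a3 entered the fit through their DHTS level, so the counts and medians of members are a description. Other tested genes with the term, 34 in number, had 11 higher and 15 lower (median −0.10).

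Among the enzymes that fold, modify and crosslink collagen, more genes fell than rose with DHTS. Of 29 such genes 25 were tested, with 3 higher and 15 lower (all tested genes: 28.2% higher and 21.9% lower) and a median log2 fold change of −0.37. The largest change was that of P3h2, a prolyl 3-hydroxylase that acts on collagen IV, from 12.5, 17.5 and 13.1 FPKM to 3.72, 3.89 and 4.29 (log2 fold change −1.62, adjusted p = 6.8e-05). Pcolce, which speeds removal of the procollagen end piece, fell from 240.1 ± 9.64 to 113 ± 1.35 FPKM (−1.08, adjusted p = 1.2e-06) and the crosslinking enzyme gene Lox from 9.51 ± 0.292 to 4.14 ± 0.483 (−1.03, adjusted p = 1.0e-04). Fkbp10, a folding enzyme of procollagen, rose from 0.515 ± 0.269 to 1.68 ± 0.247 FPKM (0.83, adjusted p = 0.0049). It is among the 3 higher genes and entered the fit through its DHTS level, so its rise is a description. The summed level of the list was 1785 to 1819 FPKM with DMSO and 1296 to 1319 with DHTS.

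Receptors of the matrix were lower more often than higher. Of 26 genes 22 were tested, with 5 higher and 13 lower (all tested genes: 28.2% higher and 21.9% lower), and the median of the list was −0.33. Itgb4, the integrin beta chain of epithelial laminin adhesion, rose from 4.58 ± 0.0520 to 21.1 ± 0.826 FPKM (log2 fold change 1.98, adjusted p = 7.5e-07). Itga1, an alpha chain of a collagen receptor, fell from 17.2 ± 0.375 to 4.45 ± 0.251 (−1.74, adjusted p = 2.1e-06), and Ddr2, a receptor kinase for fibrillar collagen, from 69.9 ± 2.83 to 26.3 ± 2.39 (−1.38, adjusted p = 7.5e-06). Itga9, a chain of a receptor for tenascin C and other ligands, fell from 11.5 ± 1.68 to 2.73 ± 0.748 FPKM (−1.75, adjusted p = 1.4e-04).

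Matrix proteases and their inhibitors had 7 of 20 tested members higher and 9 lower (all tested genes: 28.2% higher and 21.9% lower), with 32 on the list and a list median of 0.01. The membrane-bound metalloproteinase gene Mmp15 went from 1.45, 1.23 and 1.71 FPKM to 47.5, 49.6 and 50.5 (log2 fold change 4.35, adjusted p = 1.1e-07) and the urokinase gene Plau from 45.5, 42.2 and 44.8 to 134, 134 and 132 (1.57). Adamts5 and Adamts1, proteases of proteoglycans, fell by 0.89 and 0.79 on the log2 scale. Of 50 other matrix protein genes 18 were tested, with 6 higher and 8 lower (all tested genes: the same 28.2% and 21.9%), and the median of the list was −0.09. Spp1, osteopontin, fell from 561 ± 9.91 to 238 ± 6.32 FPKM (−1.23, adjusted p = 3.1e-07), and on the same scale Papln fell by 1.03 and Thbs3 by 1.00, while Ntn4, a netrin that binds laminin, rose by 1.04.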

How the data were processed

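RNA of 3 DMSO and 3 DHTS libraries was sequenced on an Illumina HiSeq instrument after TRIzol extraction and a NEBNext Ultra kit, per the labels' protocols. The submitters' processing notes name HISAT2 2.0.4, fastp 0.20.0, Cuffdiff 2.2.1, Cufflinks and the build mm10. What each tool did, and which annotation it used, is not given in the sources used here. In the deposited table there are 22564 protein-coding genes with FPKM values, which the authors scaled to transcript length and library size. A second block that the authors headed as counts is a signal: estimated fragments divided by a factor per library, recovered here from the smallest steps (92.7% to 93.0% of values above 0 within 0.1 of a whole number), and not fitted with a count model. One gene is counted among the members and in their sums and is not reported by name here. Columns that map to no library numbered 0.

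Genes with a mean of at least 1 FPKM were fitted with limma 3.58.1 (trend and robust options, R 4.3.3) on log2(FPKM + 1), with treatment as the only term, two-sided. A pseudocount of 1 understates the change of low genes, and adjusted p-values in the text are from this fit unless scaled fragments are named. Of the fits, only the one as designed, on log2(FPKM + 1), was run on simulated fragments, and the outcome is not given here. Gene positions are from GENCODE M21 (mm10), counted from 1, and the IDs of all 74 members matched. Members and gene lists were chosen with earlier results of these data known. Per-library values are given for called members with an absolute log2 fold change of at least 0.5 and for leading members of each class, and 4 genes with the largest change past the threshold are named per pathway list. The fit was repeated on scaled fragments (mean of at least 10), with quantile normalization or median-ratio scaling, with the replicate number as a block, without limma's trend and robust options, without a filter or with one at 5 FPKM, with 0.1 as pseudocount, and with 1 library left out at a time.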

Additional observations from a re-analysis of the deposited data

How the results depend on the processing

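Without a filter 13 members were higher and 19 lower, and on scaled fragments 16 and 19, with 67 and 41 members tested against 29. On scaled fragments the 29 themselves had 9 higher and 16 lower. At a mean of at least 5 FPKM 5 other matrix proteins were lower, against 8, with fewer genes tested. The 22 member calls of the fit as designed were shared, in direction too, by 22 calls with a pseudocount of 0.1, under quantile normalization, with no filter, on scaled fragments and with a replicate block, by 21 under median-ratio scaling and by 20 without trend and robust. Without each library in turn 6 to 7 members were higher and 14 to 15 lower, and of all genes 5051 to 5170 were called against 5720. Median log2 fold changes over all genes ran from −0.07 (quantile normalization) to 0.04.

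Col12a1 turned from 0.04 to −0.17 under quantile normalization and −0.03 on scaled fragments, and lay between −0.02 and 0.11 over the fits that left out a library. Lamb2 turned from 0.01 to −0.09 with quantile normalization and to −0.03 with median-ratio scaling, and lay between −0.07 and 0.06 over those fits. Neither passed in any of these, and the cause was not tested. Besides the calls given above, Lama5 (adjusted p = 0.0648) and Agrn (0.0535) were lost without trend and robust, and Lama1 passed there (0.0136), without a filter (0.0485) and under median-ratio scaling (0.0421). Same-numbered libraries of the 2 groups had correlations of deviations of −0.045, 0.063 and 0.012. No pairing by number was seen, which does not show that there was none. With the replicate block 5437 genes were called, 3053 higher and 2384 lower, with 7 members higher and 15 lower. Depth limits what can be said of the 33 members under 10 scaled fragments.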
